A study of Mus musculus with 12 samples.

Results

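The genes described here encode the fibrous sheath and the outer dense fibers, the accessory structures of the sperm tail. They are Fsip1, Fsip2, Akap3, Akap4, Cabyr, Ropn1 and Ropn1l, proteins of the fibrous sheath or its partners, and Odf1 and Odf2, proteins of the outer dense fibers. All peaks of N6-methyladenosine (m6A) annotated to 1 of these 9 genes were taken, whatever their size. This gave 32 of 65355 peaks, 13 of the 32277 peaks in the KO list and 19 of the 33078 peaks in the WT list. They lay in 6 of the 9 genes. The KO list compares the immunoprecipitated (IP) with the input libraries of mice without Alkbh5, and the WT list does the same for wild-type mice. Both come from whole testes at postnatal day 18, with 3 IP and 3 input libraries per genotype, 12 in all. The strain and the deleted part of Alkbh5 are not given in the sources used here.

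m6A is placed on messenger RNA mainly by the Mettl3-Mettl14 complex, and Alkbh5 is an enzyme that removes it. In methylated RNA immunoprecipitation an antibody pulls down methylated fragments, and a peak is a stretch where these are enriched over the input. The mammalian sperm tail has a microtubule axoneme at its core. Outer dense fibers run along the axoneme, and in the principal piece the fibrous sheath surrounds both. The sheath is built around the A-kinase anchoring proteins Akap3 and Akap4, which hold protein kinase A, and it carries enzymes of glycolysis. Many genes of these structures reach their highest expression in spermatids, after meiosis.

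Each list holds 1 value per peak and genotype, so no replicate error exists and no difference between the genotypes could be tested. Folds are the authors' linear ratios of IP over input, and each peak has the authors' false discovery rate (FDR), given below as log10. Peaks of the 2 lists that had 1 base or more in common on the same strand are called shared. The others are called KO-only or WT-only. An FDR of 1e-05 or below is called the stricter FDR. Alkbh5 itself had 0 peaks in the KO list and 3 in the WT list. As a check of the tissue, Sycp1 and Sycp3, proteins of meiotic chromosomes, had peaks in both lists, as did Sox9 of Sertoli cells. Star of Leydig cells had a KO peak alone, and Amh of Sertoli cells a WT peak alone. Ddx4 of germ cells and Cyp17a1 of Leydig cells had none in either list. Of 4 spermatid markers, 1 had a KO peak (Tnp1) and 0 had a WT peak. A peak list does not give the level of a transcript. In whole testes, moreover, fewer cells of a type and less RNA per cell cannot be told apart.

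Of the 9 genes 6 carried peaks, and the median fold of these peaks was close to that of all peaks in KO and lower than it in WT. Fsip1, Fsip2, Akap3, Odf2 and Cabyr had peaks in both lists, and Ropn1l in the WT list alone. Akap4, the main protein of the fibrous sheath, Odf1, a main protein of the outer dense fibers, and Ropn1, which binds A-kinase anchoring proteins, had no peak in either list. Within the RefSeq spans of these 3 genes (GRCm38.p6) the lists held 0 peaks of other genes. Their transcript levels at this age were not tested, so the lack of a peak cannot be read as a lack of m6A. Of the protein-coding symbols in RefSeq, 61.9% had a peak in 1 or both lists. The median fold of the members' peaks was 6.09 in the KO list (range 1.64 to 11.7) and 3.39 in the WT list (range 1.68 to 13.0), against 6.32 and 6.02 over all KO and all WT peaks. The stricter FDR was met by 7 of 13 KO peaks (53.8%, 95% Wilson interval 29.1 to 76.8) and by 11 of 19 WT peaks (57.9%, 36.3 to 76.9). Over all peaks these shares were 52.2% in KO and 51.3% in WT. None of the 32 peaks shared bases with an opposite-strand peak of its own list.

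**Figure D1:**
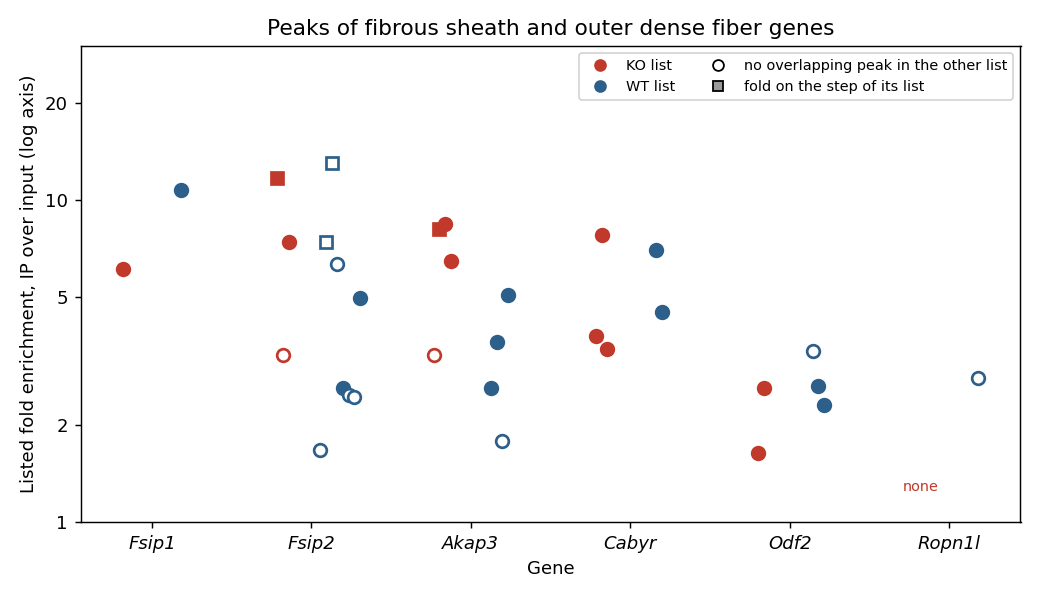
Listed fold enrichment (IP over input, log axis) of every peak in the 6 genes that have one, with KO peaks in red on the left and WT peaks in blue on the right of each gene. Open symbols have no overlapping peak in the other list and squares have a fold on the step of their list. The 8 WT peaks of Fsip2 run from 1.68 to 13.0, and Ropn1l has no KO peak.

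The peaks lay in coding exons far more often than peaks in general. Coding exons held 10 of 13 KO peaks (76.9%, 49.7 to 91.8) and 13 of 19 WT peaks (68.4%, 46.0 to 84.6). Over all peaks, coding exons held 19.5% in KO and 17.8% in WT. The 3' UTR held 3 KO peaks and 5 WT peaks of these genes, or 23.1% and 26.3%, against 48.8% of all KO and 48.9% of all WT peaks. An intron of Odf2 held the remaining WT peak, and the 5' UTR held none. Peaks of 1 gene are not independent, and Fsip2 supplied 3 of the 10 coding peaks in KO and 8 of the 13 in WT. Without it, 7 of 10 KO peaks and 5 of 11 WT peaks were coding. By gene, 4 of 5 with a KO peak (Fsip2, Akap3, Cabyr and Odf2) and 3 of 6 with a WT peak (Fsip2, Akap3 and Cabyr) had a coding peak, against 24.6% of all genes with a KO peak and 22.9% of all genes with a WT peak.

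The peaks also lay late in their genes. Counted along the gene with introns included, 13 of 13 KO peaks and 18 of 19 WT peaks began beyond 50% of the gene span. Over all genes this share was 65.6% in KO and 65.8% in WT, and among coding peaks of all genes 58.5% and 58.6%. The exception was a WT-only peak of Fsip2, which began at 11.3% of the gene. This measure was chosen after the positions were seen. Peaks of 1 gene are not independent here either, as Fsip2 supplied 3 KO and 8 WT peaks and Akap3 4 of each. The Akap3 peaks began at 54.7% to 62.7% of the gene, not far beyond the limit of 50%.

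Shared and genotype-only peaks divided unevenly between the genotypes. Of the 13 KO peaks, 2 were KO-only (15.4%, 4.33 to 42.2), where 19.3% of all KO peaks were. Of the 19 WT peaks, 9 were WT-only (47.4%, 27.3 to 68.3), where 21.6% of all WT peaks were. The KO share was thus near that of all KO peaks. The WT share was higher than that of all WT peaks, and 6 of the 9 WT-only peaks came from Fsip2. Without Fsip2, 1 of 10 KO peaks was KO-only and 3 of 11 WT peaks were WT-only. By gene, 2 of 6 had a KO-only peak (Akap3 and Fsip2) and 4 of 6 a WT-only peak (Akap3, Fsip2, Odf2 and Ropn1l), where 27.9% and 32.0% of all genes with a peak did. Of the 13 KO peaks, 0 were KO-only and met the stricter FDR, where 1.86% of all KO peaks were and did. Of the 19 WT peaks, 4 were WT-only and met it, where 2.31% of all WT peaks were and did. The 4 WT-only peaks at that FDR lay in Fsip2 (3) and Ropn1l (1). Counted by gene, 0 of 6 genes had such a peak in KO and 2 of 6 in WT, where 3.15% and 3.87% of all genes did.

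Fsip2, a very large protein that binds Akap4, had the most peaks of these genes in the WT list. In the KO list Akap3 had 4 and Fsip2 and Cabyr had 3 each. Its transcript (ENSMUSG00000075249, chromosome 2, plus strand, 82943634 to 83008937 in GRCm38) carried 3 KO peaks and 8 WT peaks, all annotated to coding exons. The peaks covered 543 bases in KO and 3059 bases in WT. Of 17795 genes with a peak, 6 (0.0337%) had 6 or more WT-only peaks. These were Fsip2, Trim66, Nsun4 and 3 genes with clone-type or predicted names. Such a count is open only to genes with many WT peaks. As many WT peaks as Fsip2 has were listed for 130 genes, or 0.795% of genes with a WT peak. A surplus as large as that of Fsip2, of 5 peaks or more in 1 list, was as common in the other direction, with 25 genes in favour of KO (0.14%) and 20 in favour of WT (0.112%).

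In both lists the lowest FDR of Fsip2 lay at the same place. There the KO peak (82993622 to 82993862) had a fold of 7.38 and a log10 FDR of -27.0. The WT peak (82993352 to 82994012) had a fold of 4.95 and a log10 FDR of -140. The KO fold was 1.49 times the WT fold, while the KO peak spanned 241 bases and the WT peak 661. At a second shared place the KO peak (82989333 to 82989513) had a fold of 11.7 and the WT peak (82989393 to 82989483) a fold of 2.61. Neither met the stricter FDR there, with a log10 FDR of -2.04 in KO and -2.81 in WT. The only KO-only peak of Fsip2 (82993202 to 82993322, fold 3.31, log10 FDR -4.57) ended 29 bases before the strong WT peak.

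The WT-only peaks of Fsip2 differed widely in fold and in FDR. The 2 with the lowest FDRs had modest folds. They lay at 82990863 to 82991163 (fold 2.48, log10 FDR -13.0) and at 82991463 to 82991823 (fold 2.44, log10 FDR -16.6), at least 1349 bases from any KO peak of the gene. A peak at 82985374 to 82985584 (fold 6.33, log10 FDR -5.58) passed the stricter FDR narrowly. The remaining peaks had weak FDRs. Those at 82982088 to 82982508 (fold 13.0, log10 FDR -2.33) and 82980169 to 82980499 (fold 7.41, log10 FDR -0.602) had the highest folds of the gene in WT, and that at 82951006 to 82951687 had a fold of 1.68 (log10 FDR -1.78). Of the 6 WT-only peaks, 4 ended before the KO peak nearest the gene start began.

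**Figure D2:**
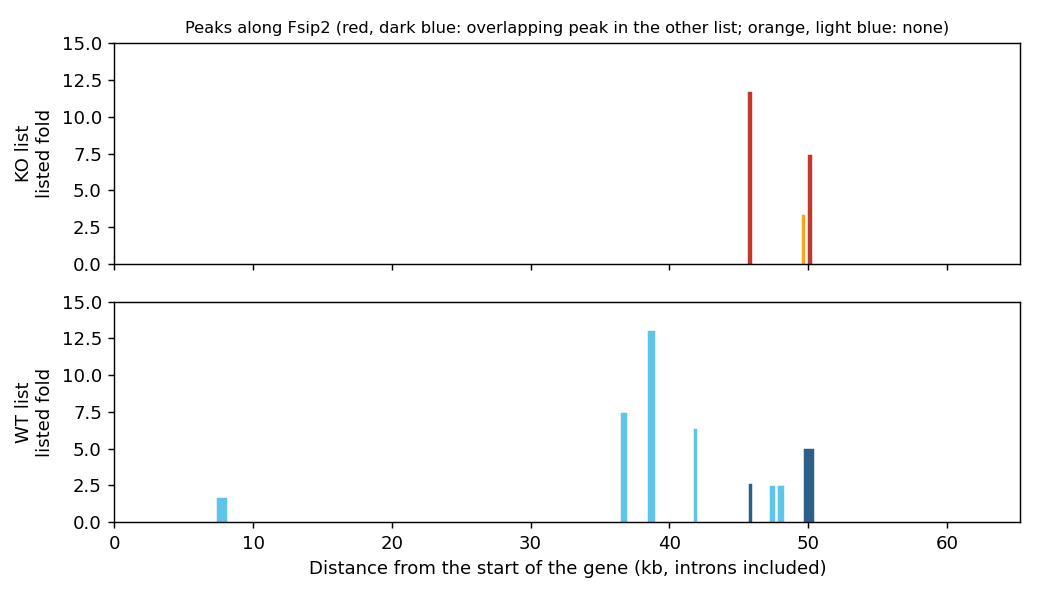
Peaks along Fsip2 in the KO list (top) and the WT list (bottom), with distance from the gene start in kb on the horizontal axis, introns included, and the listed fold as bar height. Bar width is the peak span. The 3 KO peaks lie late in the gene, and the WT list adds 6 peaks without a KO partner (light blue), 4 of them before the first KO peak.

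Some of the high folds moved in fixed steps. Between 5 and 10, 48.0% of the KO folds were whole multiples of 0.902 and 46.7% of the WT folds whole multiples of 0.926 (within the listed decimals), where chance gives 1.11% and 1.08%. Over all folds below 100 the same steps took in 34.2% of all KO and 34.5% of all WT peaks. Folds of 10 or more are listed with fewer decimals and were matched more loosely. Matches by chance are thus more frequent among them than the rates above. Among the members 2 of 13 KO and 2 of 19 WT folds were on the step. This held for the KO fold of 11.7 in Fsip2 (13 steps) and of 8.12 in Akap3 (9 steps), and for the WT folds of 13.0 (14 steps) and 7.41 (8 steps) in Fsip2. The same fold, p and FDR as those of the 7.41 peak were listed for 549 other WT peaks, and those of the 13.0 peak for 173. Among the genes of the tissue check, the highest folds of Sycp3 (7.22 in KO, 4.63 in WT) and Tnp1 (7.22 in KO) were also on the step. The input under such peaks is unknown, and the part of a floor of input in these folds was not tested.

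Akap3, an anchoring protein of the fibrous sheath, had 4 KO and 4 WT peaks, all in coding exons (ENSMUSG00000030344, chromosome 6, plus strand). Its KO folds were higher than the WT folds at every shared place. At 126865066 to 126865274 the KO peak had a fold of 8.12, and its WT partner, ending at 126865334, had 2.61. At 126865334 to 126865809 the KO fold was 8.42, and that of the WT partner (126865572 to 126865839) was 3.62. These KO folds were 3.11 and 2.33 times the WT folds, but none of the 4 peaks met the stricter FDR, with log10 FDRs of -2.69 and -4.25 in KO and -2.47 and -3.79 in WT.

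The third shared place of Akap3 held its firmest peaks. The KO peak (126866404 to 126866761) had a fold of 6.47 and a log10 FDR of -7.58. The WT peak began nearby, at 126866315, but ran on to 126873981 across an intervening stretch of the gene, with a fold of 5.06 and a log10 FDR of -9.83. The KO fold was 1.28 times the WT fold, and the overlap made up 4.67% of the WT peak. The genotype-only peaks of Akap3 were weak. The KO-only peak (126864709 to 126864917, fold 3.31) had a log10 FDR of -0.734, and 76 other KO peaks were listed with the same fold, p and FDR. The WT-only peak (126866137 to 126866226, fold 1.78) had a log10 FDR of -1.37.

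Cabyr, a calcium-binding protein of the fibrous sheath that is phosphorylated on tyrosine during capacitation, had shared peaks alone (ENSMUSG00000024430, chromosome 18, plus strand). In the coding exons 2 KO peaks stood where the WT list had 1. The KO peaks lay at 12750720 to 12751197 (fold 3.79, log10 FDR -4.40) and at 12751316 to 12751495 (fold 7.76, log10 FDR -6.43). The WT peak at 12750839 to 12751555 overlapped both and had a fold of 7.01 and a log10 FDR of -7.71. In the 3' UTR both peaks ended at 12754302, with a fold of 3.45 in KO (log10 FDR -5.43) and 4.50 in WT (log10 FDR -7.41). The KO folds were thus 0.541, 1.11 and 0.767 times that of the WT partner, without a common direction.

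**Figure D3:**
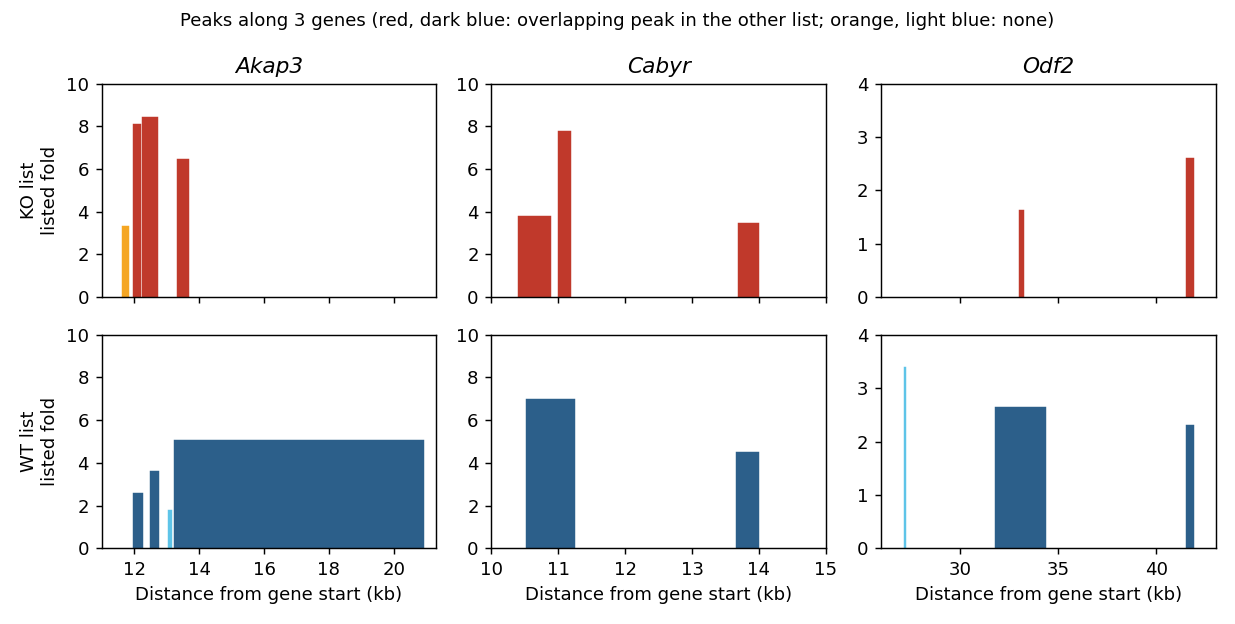
Peaks along Akap3, Cabyr and Odf2 in the KO list (top) and the WT list (bottom), by distance from the gene start in kb, introns included, with the listed fold as bar height and the span as bar width. WT spans are longer at most places, as for the Akap3 peak of 7667 bases and the Odf2 peak of 2524 bases, against 358 and 181 bases for their KO partners.

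Fsip1, a protein that binds Akap4, had 1 peak in each list, at the very end of the gene (ENSMUSG00000027344, chromosome 2, minus strand). The KO peak ran over 118130424 to 118136489 and the WT peak over 118130424 to 118136549, so that the overlap made up 99.0% of the WT peak. The fold was 6.09 in KO and 10.7 in WT, a KO fold of 0.569 times the WT fold. The log10 FDR was -12.2 in KO and -33.9 in WT. Both peaks lay in the 3' UTR by the authors' annotation and met the stricter FDR.

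Odf2, a protein of the outer dense fibers that also occurs in centrosomes and at the base of cilia, had 2 KO and 3 WT peaks (ENSMUSG00000026790, chromosome 2, plus strand). Its folds were among the lowest of the group, from 1.64 to 3.39. Near the gene end the KO fold was 1.13 times the WT fold. There the KO peak (29930727 to 29931057) had a fold of 2.61 with a log10 FDR of -27.2, and the WT peak (29930697 to 29931057) a fold of 2.31 with a log10 FDR of -42.7. Upstream they differed in extent. The KO peak at 29922247 to 29922427 spanned 181 bases with a fold of 1.64 (log10 FDR -7.55). It lay wholly within a WT peak of 2524 bases (29921023 to 29923546) with a fold of 2.65 and the lowest FDR of the group (log10 FDR -200). The authors' annotation put the KO peak in a coding exon and the WT peak in the 3' UTR, although they overlap. A WT-only peak in an intron (29916390 to 29916450, fold 3.39) had a log10 FDR of -0.767, and the same fold, p and FDR were listed for 62 other WT peaks.

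Ropn1l, a ropporin-like protein that binds A-kinase anchoring proteins, had a peak in the WT list alone (ENSMUSG00000022236, chromosome 15, minus strand). The WT peak lay at the last bases of the gene in the 3' UTR (31441211 to 31441360) with a fold of 2.81 and a log10 FDR of -77.3. Of 7139 WT-only peaks, 36 (0.504%) had an FDR as low. In the KO list the gene had no peak at all. Of all genes with a peak, 8.08% had peaks in KO but not in WT, and 11.7% had peaks in WT but not in KO. Of the 6 genes here, 0 and 1 did. Whether the transcript was as abundant in KO as in WT testes was not tested.

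Set side by side, the 11 shared KO peaks and their WT partners of longest overlap showed no common direction of fold. The 2 coding KO peaks of Cabyr had the same WT partner and were counted as separate places. The KO fold was the higher at 7 of 11 places, where 45.5% of all 26037 shared KO peaks had the higher fold. At 3 places (2 in Akap3, 1 in Fsip2) the KO fold was at least 1.5 times the WT fold, and at 3 (Fsip1, Cabyr, Odf2) it was lower by that factor, where 16.3% and 20.6% of all shared KO peaks were. The median ratio of KO over WT fold was 1.13 among the members (range 0.541 to 4.48) and 0.969 over all pairs. None of the 3 higher places had both peaks at the stricter FDR. Of the 3 lower places, 2 did, those of Fsip1 and Odf2.

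Span and FDR were less evenly divided than fold. At 9 of 11 places the KO peak was shorter than its WT partner, where 46.0% of all shared KO peaks were. At 9 of 11 the FDR was higher, and thus weaker, in KO, where this held for 43.9% of all shared KO peaks. Both counts include the 2 coding KO peaks of Cabyr, which were set against the same longer WT peak. At 5 places the KO peak had the higher fold and the weaker FDR at once, where 11.2% of all pairs did. Without Fsip2 the 3 counts were 8, 7 and 3 of 9. The exceptions in FDR were the 2 weak shared places of Akap3. These counts were chosen after the values were seen. An FDR depends on how many reads lie under a peak as well as on the fold, and the part of transcript level and of library depth was not tested.

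**Figure D4:**
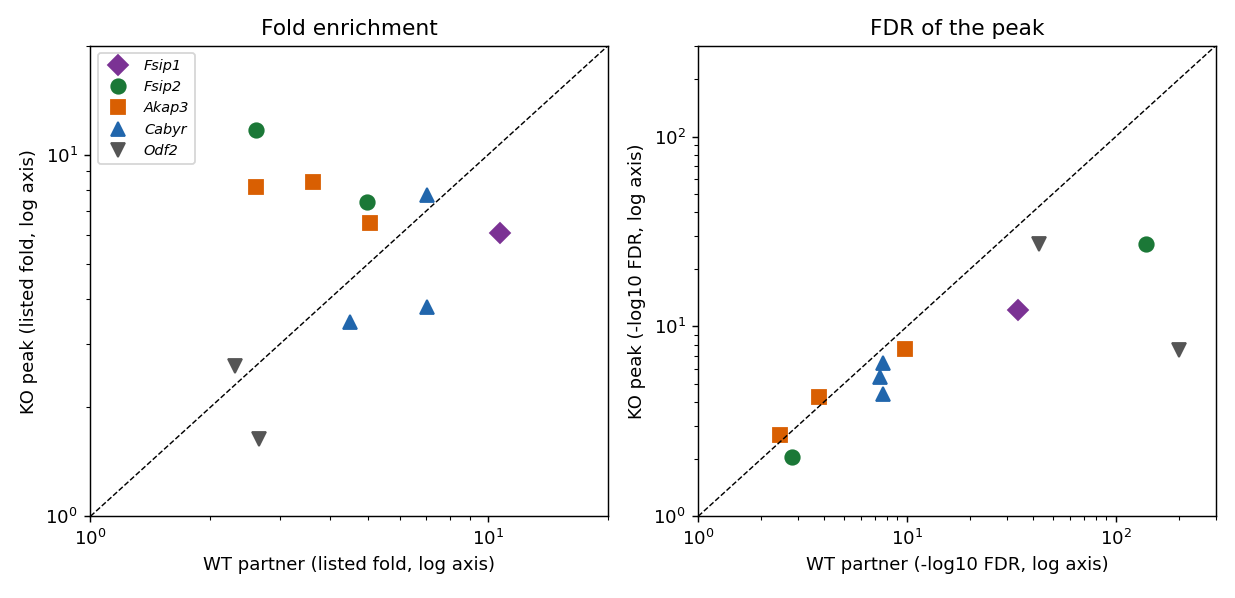
Each point is 1 of the 11 shared KO peaks set against its WT partner, by listed fold (left) and by -log10 FDR (right), both on log axes, with a dashed line at equality. Folds scatter on both sides of the line, with 7 points above it, while 9 points lie below the line for FDR.

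Among 25 other genes of the accessory structures, 14 had a peak, 10 of them in both lists. The list takes in further outer dense fiber and fibrous sheath proteins, their partners and subunits of protein kinase A. KO-only peaks occurred in 5 of these 14 genes and WT-only peaks in 5, where 27.9% and 32.0% of all genes with a peak had one. By peaks, 7 of 21 KO peaks were KO-only (33.3%, 17.2 to 54.6) and 6 of 19 WT peaks WT-only (31.6%, 15.4 to 54.0), where 19.3% of all KO and 21.6% of all WT peaks were. Coding exons held 4 of the 21 KO peaks (19.0%, 7.67 to 40.0) and 3 of the 19 WT peaks (15.8%, 5.52 to 37.6), close to 19.5% of all KO and 17.8% of all WT peaks. No peak was listed for Odf3, Odf3l1, Odf3l2, Fscb, Akap14, Prkar2b, Tekt4, Ccdc42, Gstm5, Vdac2 and Cabs1.

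Of the named genes of that list, Gapdhs, the glycolytic enzyme bound to the fibrous sheath, had the highest folds. Its shared 5' UTR peak had a fold of 23.7 in KO (chromosome 7, 30737896 to 30739358) and 41.9 in WT (30737866 to 30739388), with log10 FDRs of -40.2 and -43.8. The KO peak shared bases with a KO peak on the opposite strand, while the WT peak had no such overlap in its list. Vdac3, an anion channel found in outer dense fibers of bull sperm, had a shared intronic peak with a fold of 16.2 in KO and 11.1 in WT, both on the step of their list. Odf4, another outer dense fiber protein, resembled Ropn1l. It had no KO peak, and its single WT peak lay in the 3' UTR, at 68921835 to 68922044 on chromosome 11 (fold 6.79, log10 FDR -69.6).

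By fold, the highest KO-only peaks were those of Rhpn1, a binding partner of ropporin (3' UTR, fold 12.6, log10 FDR -2.28), Tssk4, a kinase of Odf2 (5' UTR, fold 9.02, log10 FDR -1.35), and Odf3b (3' UTR, fold 5.86, log10 FDR -1.50). After Odf4, the highest WT-only peaks were those of Spag4, a binding partner of Odf1 (5' UTR, fold 4.17, log10 FDR -0.733), and Prkar2a, a regulatory subunit of protein kinase A (3' UTR, fold 3.70, log10 FDR -0.767). None of these 5 peaks met the stricter FDR. The folds of Rhpn1 (14 steps), Tssk4 (10 steps) and Prkar2a (4 steps) were on the step of their list, and the same fold, p and FDR were listed for 177, 456 and 15 other peaks. The genotype-only peaks of the 25 genes that did meet the stricter FDR were 2 in KO and 2 in WT. The KO-only ones, picked out after their values were seen, both lay in Spag5, another binding partner of Odf1 (fold 2.86 with log10 FDR -6.73 in a coding exon, and fold 2.14 with log10 FDR -6.90 in the 3' UTR). The WT-only ones were that of Odf4 and a 3' UTR peak of Vdac3 (fold 1.37, log10 FDR -13.5), the second also picked out after its values were seen.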

How the data were processed

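m6A was mapped by immunoprecipitation and sequencing in 12 libraries, 3 per group (KO IP, KO input, WT IP, WT input), read from the sample titles. Per the labels' protocols, polyadenylated RNA was fragmented, pulled down with an m6A antibody and sequenced in pairs with the strand marked. The submitters' processing notes name GRCm38 and the tools HISAT2, StringTie, HOMER, fastp and FastQC. Neither the peak caller nor any pooling of replicates is stated in the sources used here. Per the file headers, each deposited list gives a fold enrichment (a linear ratio) and the log10 of p and FDR per peak, handled as a score since the smallest values run off the scale. Deposited starts count from 0, and positions here count from 1.

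Peaks were taken by the authors' gene name and compared with Python 3.11.15 and pandas 2.3.3, with an overlap routine tested on simulated peaks. Shared KO peaks were paired with the WT peak of longest overlap. Spans run from start to end, introns included. Wilson 95% intervals cover counting error only. The depth per library is unknown, and tests over libraries, which need values per library, were not run. Alternatives were other overlap rules, FDR limits, pairings and scalings.

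The members and lists were chosen with earlier results of these data known. All peaks of the 9 genes are named. From the 25 other genes, those named have the 3 highest folds among KO-only and among WT-only peaks and the 2 highest among shared KO peaks. No sequence under a peak was used here.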

Additional observations from a re-analysis of the deposited data

How the results depend on the processing

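No paired analysis was possible because the lists hold no values per library. For the same reason no replicate could be left out, and position classes from another annotation were not run. Ignoring strand, requiring the same gene name and lists of equal length (the last chosen after seeing the data) left 2 KO-only and 9 WT-only peaks. When 50% of both peaks had to overlap, 6 of 13 KO peaks were KO-only and 12 of 19 WT peaks WT-only, against 42.6% and 44.0% of all peaks, and 4 of 7 pairs had the higher fold in KO. With partners allowed within 200 bases, 0 of 13 peaks were KO-only and 8 of 19 WT-only (all peaks 15.9% and 18.3%). With an FDR of 0.05 or below, 1 of 12 was KO-only and 7 of 17 WT-only (all peaks 16.1% and 18.6%). With 1e-05 or below, 0 of 7 were KO-only and 4 of 11 WT-only, whether the other list was limited too (all peaks 12.6% and 13.0%) or not (3.57% and 4.5%). At that limit 4 of 7 pairs had the higher fold in KO, 0 of them by 1.5 times or more. The KO fold was lower by 1.5 times or more in 2 of the 7. Coding exons held 4 of 7 KO and 6 of 11 WT peaks. Fewer peaks enter under these limits. For the pair and coding counts under these rules no share over all peaks is given here, so they lack a background. Leaving out Fsip2, chosen after seeing the data, gave 1 KO-only and 3 WT-only peaks and 5 coding peaks in WT. Leaving out pairs with a fold on the step, likewise chosen later, gave 1 pair higher by 1.5 times or more in KO. In all, 23 of 39 alternative values stayed within 1.5 times of those reported. They were compared as counts and not as shares, so a value could also move because fewer peaks entered.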
